A study of Mus musculus with 28 samples.

Results

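The genes that are used to tell inhibitory interneuron subtypes apart were followed through the fraction data of 3 mouse brains. These are Pvalb, Sst, Vip, Npy, Calb2, Cck, Cort and Reln. They were chosen by symbol, as the array probes whose accession maps to 1 of the 8 names, from 20660 named symbols in all, of which 15546 passed the detection filter. All 8 genes passed it. The brains came from male C57BL/6J mice aged 3 weeks, for which the labels name no treatment and no transgene, and each was cut along a different plane into serial frozen sections that were pooled into fractions. The coronal series has 12 fractions from the brain of mouse 1, the horizontal series 6 from mouse 2 and the sagittal series 10 from mouse 3. Each fraction was measured on 1 single-colour array, so that no position has a replicate, and mouse and plane cannot be told apart. Fraction widths differ between the sample labels and the study's methods, and the last coronal fraction is labelled as a pool with a further one. Fraction numbers are therefore used in place of distances.

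Inhibitory interneurons release GABA and are sorted by the calcium-binding proteins and neuropeptides they make. In the cerebral cortex, parvalbumin marks the fast-spiking basket and chandelier cells, somatostatin the cells that contact dendrites, and vasoactive intestinal peptide the cells that mainly inhibit other interneurons, while reelin, neuropeptide Y, calretinin, cholecystokinin and cortistatin mark further or overlapping groups. None of these genes is restricted to such cells: parvalbumin is also made by Purkinje cells and other neurons of the cerebellum, calretinin by granule cells of the cerebellum and the olfactory bulb, reelin by mitral cells and cerebellar granule cells, and cholecystokinin by pyramidal neurons.

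A level below is the log2 signal of a probe minus the 75th percentile of its array, so that 0 stands for that percentile and a step of 1 for a factor of 2. Levels of different genes come from different probes and were not set against each other. Signal at the 75th percentile ranged from 135 in sagittal fraction 1 to 574 in coronal fraction 4, between 24822 and 34240 probes were well above background on an array, and the median SD of repeated spots on an array was 0.056 to 0.085. Lists of regional marker genes gave the order of the fractions. Along the coronal series the list of hindbrain markers peaked in fraction 1, the lists of cerebellar granule cells and Purkinje cells in fractions 2 and 3, that of hippocampus in 6, hypothalamus in 7, striatum in 8, cerebral cortex in 9, olfactory sensory neurons in 11 and olfactory bulb in 12. The cortex list was highest in fraction 1 of the horizontal series and fraction 10 of the sagittal series. Pvalb, Sst, Npy, Calb2, Cck and Cort were well above background in all 28 fractions, Vip in 27 and Reln in 22.

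Promoters are shown for Cort, Cck, Vip and Npy, the genes of the pairs with the most similar profiles, and for Sst, whose window holds the full form of a motif that 3 of those 4 carry in a shorter form. Each line gives the 250 bases before the start of the gene, 5′ to 3′ on its own strand, from RefSeq with coordinates of GRCm38.p6. Capitals mark the cAMP response element, TGACGTCA, the site bound by the transcription factor CREB, or its shorter form, CGTCA on either strand (TGACG on the other).
Cort (chr4:149126764-149127013, minus strand): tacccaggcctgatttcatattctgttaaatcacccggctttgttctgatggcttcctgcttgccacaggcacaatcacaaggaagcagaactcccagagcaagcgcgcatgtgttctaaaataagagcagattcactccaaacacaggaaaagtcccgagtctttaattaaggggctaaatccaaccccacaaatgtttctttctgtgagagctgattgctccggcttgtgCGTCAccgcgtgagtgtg
Cck (chr9:121495695-121495944, minus strand): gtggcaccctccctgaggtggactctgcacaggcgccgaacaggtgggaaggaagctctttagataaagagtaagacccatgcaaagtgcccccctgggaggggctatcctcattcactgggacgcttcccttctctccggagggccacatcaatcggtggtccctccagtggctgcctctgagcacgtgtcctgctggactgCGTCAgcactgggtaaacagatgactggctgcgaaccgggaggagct
Vip (chr10:5638968-5639217, plus strand): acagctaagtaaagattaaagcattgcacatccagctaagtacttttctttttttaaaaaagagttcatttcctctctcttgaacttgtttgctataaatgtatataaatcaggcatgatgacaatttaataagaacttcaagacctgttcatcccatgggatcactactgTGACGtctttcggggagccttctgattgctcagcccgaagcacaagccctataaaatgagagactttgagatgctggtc
Npy (chr6:49822460-49822709, plus strand): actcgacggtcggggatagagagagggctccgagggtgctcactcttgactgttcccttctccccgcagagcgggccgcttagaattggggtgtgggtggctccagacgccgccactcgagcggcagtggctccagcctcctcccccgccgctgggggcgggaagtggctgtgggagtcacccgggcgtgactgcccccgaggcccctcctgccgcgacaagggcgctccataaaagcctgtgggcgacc
Sst (chr16:23890845-23891094, minus strand): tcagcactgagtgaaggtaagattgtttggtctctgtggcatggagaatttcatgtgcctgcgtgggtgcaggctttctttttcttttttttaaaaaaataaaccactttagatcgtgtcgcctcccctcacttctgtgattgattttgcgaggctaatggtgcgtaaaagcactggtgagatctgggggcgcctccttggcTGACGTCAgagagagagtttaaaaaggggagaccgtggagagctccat
Position -1 is the last base before the start. The shorter form begins at -18 in Cort, at -47 in Cck and at -79 in Vip, and the full element at -48 in Sst, where it holds the shorter form on both strands. Of the 8 genes, 7 were matched to the promoter table, all but Calb2. Neither form was found in the window of Npy printed here, nor in those of Reln and Pvalb, which has 2 windows. Among 32851 promoter windows of the same length, 17.8% hold the shorter form and 1.55% the full element. These matches describe letters in a window and are not evidence of binding.

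To ask where each gene is expressed from the back to the front of the brain, a smooth curve of the fraction number was fitted to the coronal series with limma. All 8 genes had a position trend at an adjusted p under 0.05, against 33.7% of the 32364 probes tested. The fitted curve was highest in fractions 1 to 6 for 1 of them, as for 13.4% of probes, and in fractions 7 to 12 for 7, as for 20.4%. The 7 include Calb2, whose curve was highest in fraction 12 but whose highest observed level was in fraction 2. Their fitted ranges had a median of 4.32 log2, against 0.90 over all tested probes. Cort, Vip, Cck and Npy were low in fractions 1 to 3, where markers of hindbrain and cerebellum were high, and higher in every later fraction. Pvalb ran the other way, Sst was high in the middle of the series, and Calb2 and Reln were high at both ends. In bulk tissue, fewer cells of a type and less RNA per cell cannot be told apart.

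Cort encodes cortistatin, a neuropeptide related to somatostatin that acts on the same receptors. Its levels were -1.38, -2.08 and -1.98 in coronal fractions 1 to 3, 2.48 in fraction 4, between 3.25 and 3.82 in fractions 5 to 10, and 3.39 and 3.11 in fractions 11 and 12. The lowest, median and highest were -2.08, 3.32 and 3.82. A single step of 4.47 between fractions 3 and 4 thus separated a low and a high part of the series, and the levels of the high part lay between 2.48 and 3.82. The highest fraction was 59.85-fold above the lowest (fitted range 6.47 log2, residual SD around the curve 1.12, adjusted p = 0.00323). The residual SD was the largest among the 8 genes, and the fitted curve is smoother than that step.

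Vip encodes vasoactive intestinal peptide. It was not well above background in coronal fraction 1, at -4.32, and measured -3.43 and -2.05 in fractions 2 and 3, 0.72 in fraction 4, 0.84 to 1.79 in fractions 5 to 10, and 0.43 and 0.99 in fractions 11 and 12. Its median was 0.92. Fractions 4 to 12 were therefore close to each other and all far above the first 3. The highest level, in fraction 10, was 68.85-fold above fraction 1 (fitted range 6.15 log2, residual SD 0.57, adjusted p = 0.000253). That fold uses the level of fraction 1 as it stands, not well above background, and is neither a measured fold nor a lower bound. Without fraction 1 the highest fraction was 37.3-fold above the lowest, fraction 2, and the fitted range was 4.90 log2 (adjusted p = 0.00131). With another background correction, normexp, the fitted range over all coronal fractions was 4.24 log2 (adjusted p = 9.43e-05), so the size depends on that step.

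Cck encodes cholecystokinin, one of the most abundant neuropeptides of the forebrain. Its coronal levels were 5.98, 5.42 and 5.56 in fractions 1 to 3, 7.20 in fraction 4, 7.88 to 8.77 in fractions 5 to 10 and 7.86 and 7.70 in the last 2, with a median of 7.87. It was thus strongly detected also in the low fractions. Fraction 10 exceeded fraction 2 by 10.2-fold (fitted range 3.04 log2, residual SD 0.54, adjusted p = 0.00395).

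Npy encodes neuropeptide Y. Its levels were 2.58, 2.18 and 1.54 in fractions 1 to 3, then 2.66, 3.61, 4.03, 4.56, 4.41, 4.70 and 4.60 in fractions 4 to 10, and 5.06 and 5.36 in fractions 11 and 12, with a median of 4.22. Unlike Cort, Vip and Cck, it was highest at the front end, where the lists of olfactory bulb and olfactory sensory neurons stood 4.86 and 4.94 log2 above their series means. Fraction 12 was 14.2-fold above fraction 3 (fitted range 3.02 log2, residual SD 0.50, adjusted p = 0.00156). Without fraction 3 the fold between the highest and the lowest fraction was 9.10.

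Sst encodes somatostatin. It measured 4.67, 3.72 and 3.17 in coronal fractions 1 to 3, 5.03 in fraction 4, between 5.55 and 6.03 in fractions 5 to 10, and 3.89 and 2.14 in fractions 11 and 12, with a median of 5.29. The level was therefore flat over the middle fractions and low at both ends, with its minimum in the fraction where the olfactory bulb list was highest. Fraction 7, the highest, was 14.9-fold above fraction 12 (fitted range 4.05 log2, residual SD 0.62, adjusted p = 0.00388). Without fraction 12, which is labelled as a pool with a following fraction, the fold between the highest and the lowest fraction was 7.28 and the fitted range 2.22 log2 (adjusted p = 0.0257). The hypothalamus list stood 4.08 above its mean in fraction 7, where Sst, also a hypothalamic hormone that restrains growth hormone release, measured 6.03 against 5.76 and 5.89 in the neighbouring fractions. These neighbours do not differ from fraction 7 beyond the residual SD.

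Pvalb encodes parvalbumin. Its levels were 8.38, 8.52 and 8.14 in coronal fractions 1 to 3, 6.89 in fraction 4, 5.42, 4.97, 5.72, 4.89, 4.68 and 4.82 in fractions 5 to 10, and 3.91 and 2.36 in fractions 11 and 12, with a median of 5.19. Every one of the first 3 fractions was above every later one. Fraction 2 was 71.4-fold above fraction 12 (fitted range 6.18 log2, residual SD 0.64, adjusted p = 0.000545). Without fraction 12 the fold between the highest and the lowest fraction was 24.4 and the fitted range 4.69 log2 (adjusted p = 0.00266). A further probe of Pvalb ran in parallel, with r of 0.991, 0.991 and 0.959 over the 12, 6 and 10 fractions of the coronal, horizontal and sagittal series and the same highest fraction in each.

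Calb2 encodes calretinin. It measured 2.43, 3.27 and 2.94 in coronal fractions 1 to 3, 1.28, 0.41, 0.20 and 0.40 in fractions 4 to 7, -0.995 and -1.80 in fractions 8 and 9, 0.61 in fraction 10, and 2.97 and 3.06 in fractions 11 and 12, with a median of 0.95. High levels at both ends thus enclosed a trough around fraction 9, where the cortex list was highest. Fraction 2 was 33.7-fold above fraction 9 (fitted range 4.60 log2, residual SD 0.84, adjusted p = 0.00441). Without fraction 9 the fold between the highest and the lowest fraction was 19.25 and the fitted range 3.97 log2 (adjusted p = 0.00784). The second highest fraction, 12, was 0.21 below fraction 2, less than the residual SD, so the order of both ends is not settled.

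Reln encodes reelin, a secreted protein that guides neuronal positioning and acts at synapses. Its levels were -2.58, -1.46 and -1.61 in fractions 1 to 3, -2.75, -3.37 and -3.31 in fractions 4 to 6, not well above background at -4.73 to -3.87 in fractions 7 to 10, and -2.10 and -0.91 in fractions 11 and 12, with a median of -3.03. It was thus measured at both ends and lost in the middle of the series. Reln was lowest in fraction 7, below the lowest signal that was well above background on that array. Fraction 12 was 10.65-fold above that signal, which is not a lower bound for Reln (fitted range 3.56 log2, residual SD 0.58, adjusted p = 0.00394). The size depends on the background correction, since with normexp the fitted range was 1.69 log2 (adjusted p = 0.00064) and the mean of fractions 4 to 12 minus that of fractions 1 to 3 was -0.54, in place of -1.37.

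**Figure D1:**
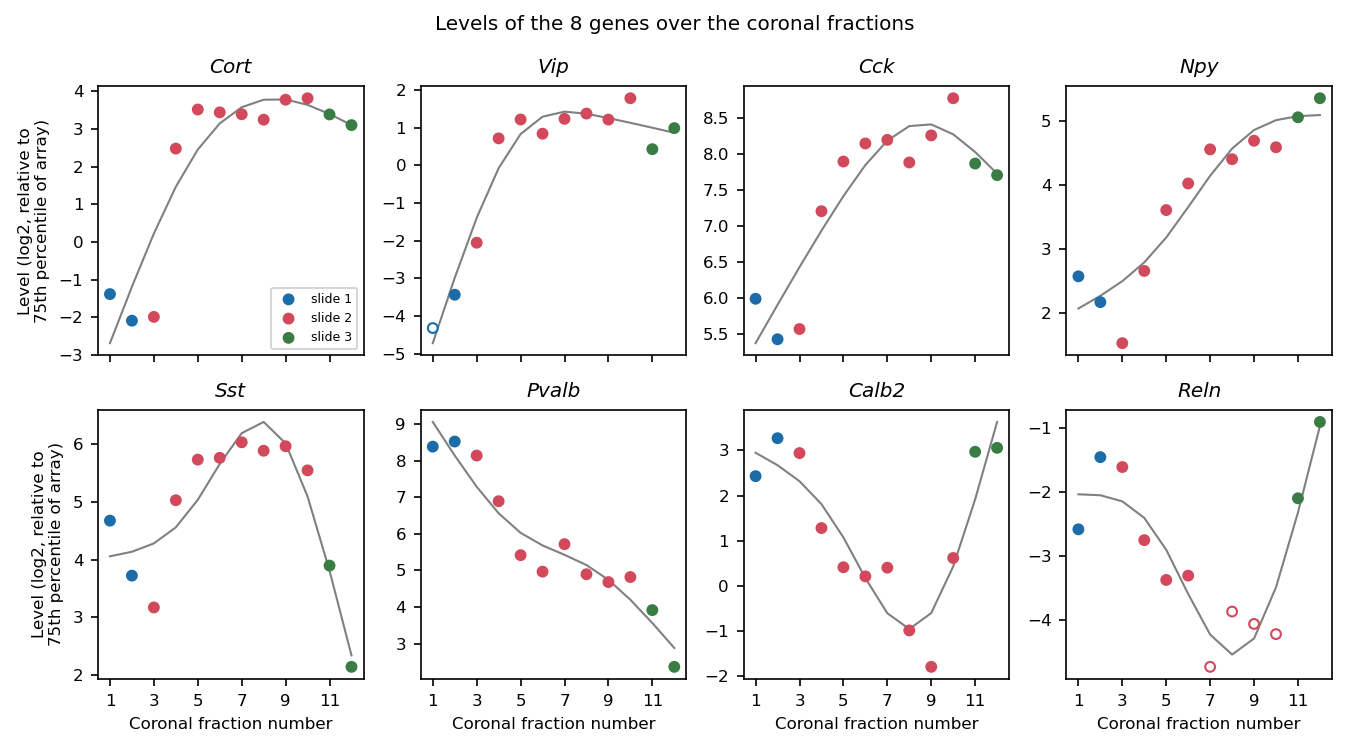
Level of each gene (log2 relative to the 75th percentile of the array) against coronal fraction number, 1 point per array, coloured by slide, with open points where the gene was not well above background and the fitted spline as a grey line. Cort, Vip, Cck and Npy are lower in fractions 1 to 3 than in every later fraction, Pvalb is higher there, and Calb2 and Reln are high at both ends.

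Arrays of the coronal series lay on 3 slides, with fractions 1 and 2, 3 to 10 and 11 and 12 each on 1 of them, so slide and position overlap. With the slide as an added term none of the 8 genes passed, with adjusted p of 0.0661 to 0.239, and 241 of the 32364 tested probes did (0.745%). The range of the curve term alone in that fit, without the slide terms, was 6.85 log2 for Pvalb, 7.66 for Vip, 4.24 for Npy, 4.02 for Cck and 8.18 for Cort. For these 5 genes the main fit gave 6.18, 6.15, 3.02, 3.04 and 6.47. For the other 3 it was 3.33 for Sst, 3.79 for Calb2 and 2.42 for Reln, with 4.05, 4.60 and 3.56 in the main fit. As slide and position overlap, the curve and slide terms can trade off, so these ranges are not comparable with those of the main fit. Among fractions 3 to 10 alone, which share 1 slide, 7 of the 8 genes kept a trend, and Calb2 did not (adjusted p = 0.103), against 4164 of all tested probes (12.9%). The fitted range of Calb2 over these 8 fractions was 3.42 log2, and those of the 7 that passed lay between 2.46 (Reln) and 5.52 (Cort), with 3.54 for Pvalb and 3.46 for Vip. Reln was not well above background in fractions 7 to 10, so its trend here rests in part on values below detection.

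The step between fractions 3 and 4, both on the same slide, was noticed after the levels were seen and is given as a description. Vip, Npy, Cck and Cort had all levels of fractions 4 to 12 above all levels of fractions 1 to 3, as did 6.07% of tested probes. Their mean differences were 4.36, 2.24, 2.33 and 5.17 log2. With normexp they were 3.15, 2.21, 2.30 and 4.61. Pvalb had all levels of fractions 4 to 12 below those of fractions 1 to 3, as did 6.86% of tested probes, with a difference of -3.50. For Sst (1.26), Calb2 (-2.20) and Reln (-1.37) the ranges overlapped. These 5 separations and all 8 signs were the same with the array median, quantile normalization or another background correction, each tried after seeing the data, and the median difference over all tested probes was between -0.03 and 0.02 in each.

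The horizontal series was examined in the same way, to ask how the genes are distributed from top to bottom. A position trend was found for 5 of the 8 genes, Vip, Npy, Calb2, Cck and Cort, against 15.8% of tested probes. The curve was highest in fractions 1 to 3 for 4 of the 5, as for 5.37% of probes, and in fractions 4 to 6 for 1, as for 10.4%. That 1 is Calb2, whose highest observed level was in fraction 3. Cort, Cck, Npy and Vip were highest in fraction 1, the fraction with the most cortical marker signal, and decreased from there. Calb2 was low in fraction 1 and high in the middle. Sst, Pvalb and Reln did not pass the test.

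Cort had 4.42, 3.98, 3.24, 2.97, 2.63 and 2.21 in horizontal fractions 1 to 6, and decreased at each step. Its fraction 1 was 4.63-fold above fraction 6 (residual SD 0.11, adjusted p = 0.0186). Cck had 8.77, 8.41, 7.81, 7.57, 6.97 and 6.76, likewise lower in each fraction than in the one before. That amounts to 4.03-fold (residual SD 0.11, adjusted p = 0.0199).

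Npy measured 5.14, 4.47, 3.92, 3.49, 3.28 and 3.04, a fold of 4.29 (residual SD 0.03, adjusted p = 0.0181). It decreased at each step. Vip measured 2.62, 1.38, 0.32, -0.07, 0.06 and -0.03. It fell over the first 3 fractions and was level in the last 3, with the highest fraction 6.44-fold above the lowest (residual SD 0.14, adjusted p = 0.0169).

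Calb2 measured -1.63, 1.66, 2.38, 2.03, 1.32 and 0.53 in horizontal fractions 1 to 6. The topmost fraction was thus its lowest, 16.0-fold below fraction 3 (fitted range 3.61 log2, residual SD 0.68, adjusted p = 0.0433). Pvalb measured 5.13, 7.01, 6.95, 6.82, 6.04 and 5.53, with fractions 2, 3 and 4 close together (residual SD 0.46, adjusted p = 0.0811). Sst measured 5.55, 5.40, 4.68, 4.81, 5.47 and 4.78, with similar values in fractions 1, 2 and 5 (residual SD 0.41, adjusted p = 0.451). Reln measured -2.47, -2.52, -2.23, -2.29 and -2.69, and was not well above background in fraction 6 at -3.34 (residual SD 0.14, adjusted p = 0.0581).

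With 6 fractions and 1 slide, these calls are sensitive to single arrays. None of the 8 genes passed without fraction 1, 3 or 4, and none with a straight line in place of the curve, for which 1 probe passed in all. Of all 32364 tested probes, 2213 passed without fraction 1, and 0 without fraction 3 and 0 without fraction 4, so without either of fractions 3 and 4 the horizontal calls of the receptor and other gene lists are lost as well. Without fraction 6, Calb2 did not pass (adjusted p = 0.0539), while 4.13% of all tested probes did. With the array median as the scaling, Pvalb (adjusted p = 0.00885) and Reln (adjusted p = 0.00782) passed as well, in a setting where 19333 of the 32364 tested probes passed (59.7%). Without fraction 1 the fitted range of Vip was 1.43 log2 in place of 2.70, and that of Calb2 was 1.67 in place of 3.61. The fold between the highest and the lowest fraction was then 2.74 for Vip, 2.69 for Npy and 3.59 for Calb2. Fraction 1 also had the highest mean of the 4 blood markers, 1.20 log2 above the series mean, and the part of blood in these profiles was not tested.

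**Figure D2:**
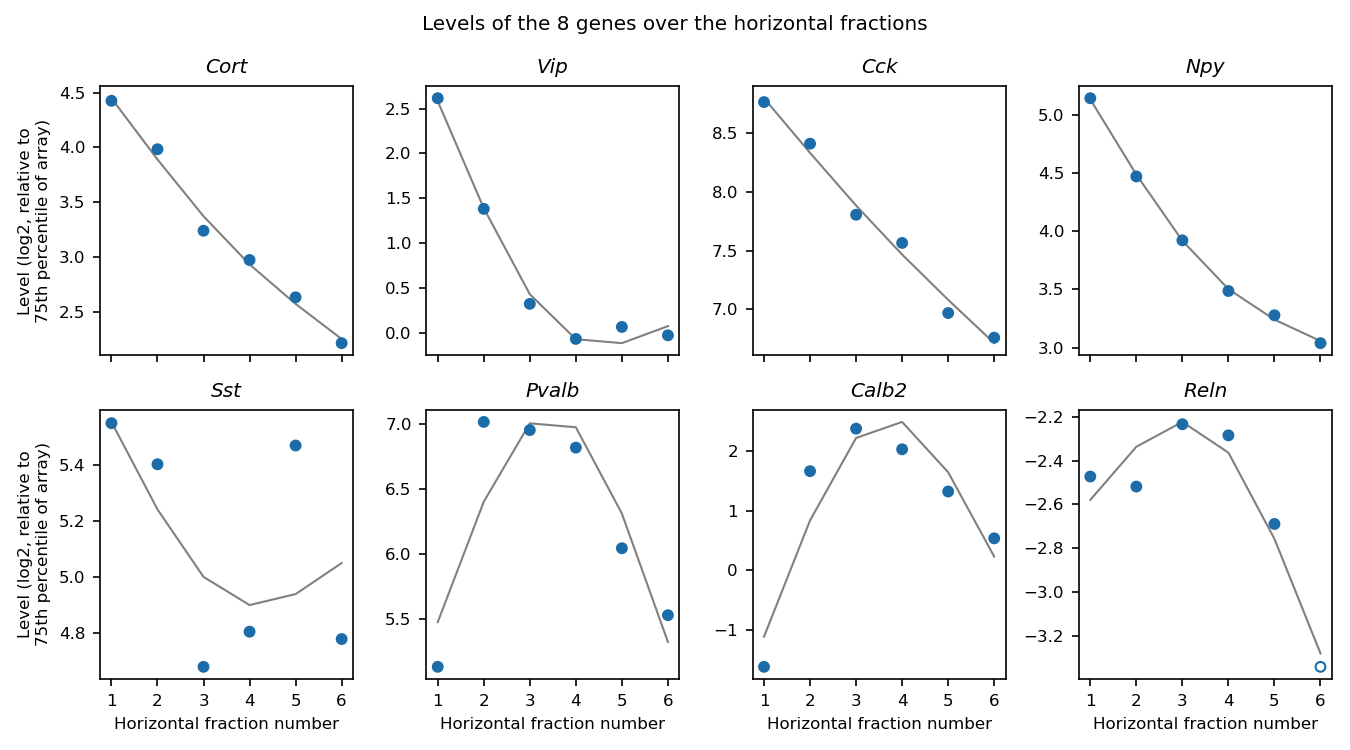
Level of each gene (log2 relative to the 75th percentile of the array) against horizontal fraction number, 1 point per array, with the open point for Reln in fraction 6 not well above background and the fitted spline as a grey line. Cort, Vip, Cck and Npy are highest in fraction 1, while Calb2 and Pvalb are lowest there.

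Along the sagittal series, from one side of the brain to the other, 3 of the 8 genes had a position trend, Vip, Cck and Cort, against 14.7% of tested probes. The curve of all 3 was highest in fractions 1 to 5, as for 13.1% of probes, and of none in fractions 6 to 10, as for 1.63%. The highest observed level of Vip was in fraction 10, however. All 3 were higher in the outer fractions than near the midline. The hypothalamus list was highest in fraction 5, so fractions 5 and 6 were taken as the innermost.

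Cort had 4.72, 4.52, 3.52, 2.82 and 2.75 in sagittal fractions 1 to 5 and 2.59, 3.19, 3.69, 3.86 and 4.47 in fractions 6 to 10. The level thus decreased towards the midline and rose again, with fraction 1 being 4.39-fold above fraction 6 (fitted range 2.21 log2, residual SD 0.24, adjusted p = 0.00967). Vip had 1.66, 1.59, 0.74, 0.28 and 0.42, then 0.36, 0.24, 0.70, 0.83 and 1.85. Its highest and lowest fractions, 10 and 7, differed by 3.06-fold (residual SD 0.24, adjusted p = 0.0187). Cck had 9.12, 8.49, 7.86, 7.70 and 7.39, then 7.55, 7.84, 8.27, 7.95 and 8.78, a fold of 3.33 between fractions 1 and 5 (residual SD 0.20, adjusted p = 0.0193).

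The other 5 genes did not pass. Npy lay between 3.59 in fraction 6 and 4.87 in fraction 10, with a median of 4.19 (adjusted p = 0.133). Sst had the smallest observed range, from 4.99 in fraction 6 to 6.06 in fraction 2, with a median of 5.41 (adjusted p = 0.243). Both had their lowest level beside the midline. Pvalb measured 4.82 in fraction 1, 6.53 to 7.11 in fractions 2 to 7, 7.70 in fraction 8, and 5.66 and 6.17 in fractions 9 and 10 (adjusted p = 0.158). Calb2 measured -1.28 in fraction 1, 1.24 to 2.26 in fractions 2 to 8, and -0.53 and 0.37 in fractions 9 and 10 (adjusted p = 0.173). Pvalb and Calb2 were thus both lowest in fraction 1 and highest in fraction 8. Reln ranged from -4.43 in fraction 9, where it was not well above background, to -2.18 in fraction 5 (adjusted p = 0.492).

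Fraction 1 had the lowest signal of all arrays, and without it none of the 8 genes passed, nor did any other probe. Without fraction 6, Cort was the only 1 of the 8 to pass, against 6.27% of all tested probes. Cck did not pass without fraction 4 (adjusted p = 0.053) or 5 (adjusted p = 0.0589), nor Vip without fraction 7 (adjusted p = 0.0504). Without fractions 4, 5 and 7 in turn, 6.45%, 8.02% and 9.28% of all tested probes passed. None passed with the array median as the scaling or among fractions 5 to 10 alone, which share 1 slide, and with the slide as an added term Cck did not (adjusted p = 0.0503). Without fraction 9 Npy passed as well (adjusted p = 0.0315), and without fraction 10 Reln did (adjusted p = 0.0192). Of all tested probes, 38.8% and 47.1% passed in these fits, against 14.7% with every fraction kept.

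The outermost sagittal fractions, 1 and 10, and each pair further in (2 and 9, 3 and 8, 4 and 7, 5 and 6) were taken as cutting both sides at a like distance from the midline. The regional lists do not bear this out for the outer pairs. The granule cell list was at -3.69 in fraction 1 and -1.18 in fraction 10, and at 0.67 in fraction 2 and -1.39 in fraction 9, while the choroid plexus list was at -5.05 and -0.09 in fractions 1 and 10. The SD within pairs therefore holds unequal tissue as well as error. The mean of the mirror pair was highest for fractions 1 and 10 in Cort (4.60), Vip (1.76), Cck (8.95), Npy (4.72) and Sst (5.72), for fractions 3 and 8 in Pvalb (7.41) and Calb2 (1.88), and for fractions 5 and 6 in Reln (-2.28). In Cort the pair means were 4.60, 4.19, 3.60, 3.00 and 2.67 from the outside in, with an SD within pairs of 0.26. In Calb2 they were -0.45, 0.43, 1.88, 1.60 and 1.59, with an SD within pairs of 0.87. As a factor in limma, the mirror pair passed for 0 of the 8 genes, with adjusted p from 0.172 (Cort) to 0.553 (Sst), as for 0% of all probes. At an unadjusted p under 0.05, 5 of the 8 genes (Cort, Vip, Cck, Pvalb and Reln) and 5406 of all tested probes passed.

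A difference between the sides was found for 0 of the 8 genes (adjusted p = 0.995 for each) and for 0% of tested probes, while 1409 probes had an unadjusted p under 0.05. The difference of fractions 6 to 10 minus 1 to 5 was between -0.28 for Reln (SE 0.27) and 0.30 for Calb2 (SE 0.47). Fractions 1 to 4 lay on 1 slide and fractions 5 to 10 on another, so in 4 of the 5 pairs, 2 and 9 among them, side and slide cannot be told apart. Within single pairs, fraction 9 measured below fraction 2 for all 8 genes, by 0.54 (Cck) to 1.92 (Calb2) log2. The array of fraction 9 stood apart, with a 75th percentile of 176 over a median signal of 30.5, against 364 over 26.0 in fraction 2, and with the highest SD of repeated spots (0.0855). Its part in these differences was not tested. Fraction 10 was higher than fraction 1 by 1.35 for Pvalb and 1.65 for Calb2. The other 3 pairs of Calb2 differed by 0.33 to 0.76.

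**Figure D3:**
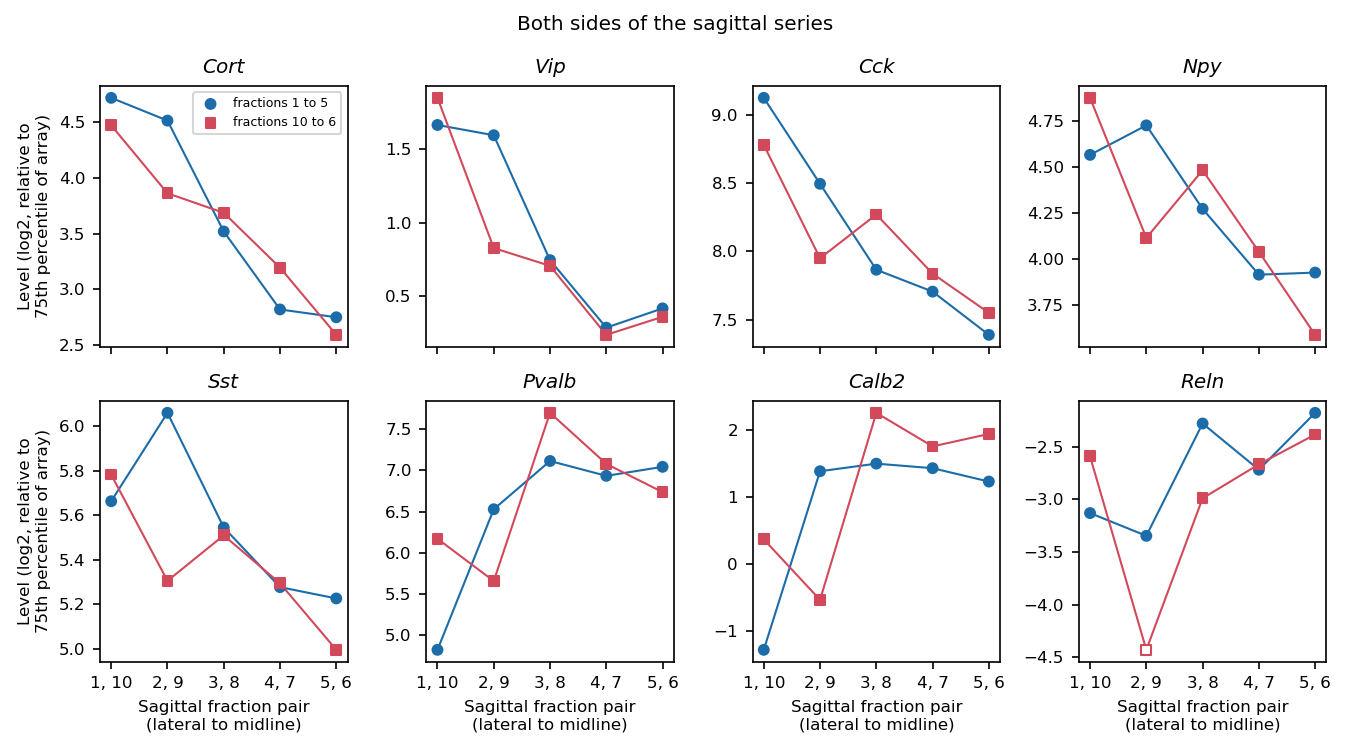
Level of each gene (log2 relative to the 75th percentile of the array) in sagittal mirror pairs from the outermost (1, 10) to the innermost (5, 6), with blue circles for fractions 1 to 5, red squares for fractions 10 to 6 and an open square where Reln was not well above background. Cort, Vip and Cck are highest in the outermost pair on both sides, and fraction 9 lies below fraction 2 in every panel.

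Which of the genes peaked outside the cortex was read from the cortex list, 10 genes including the projection neuron genes Tbr1 and Neurod6. A gene was counted as peaking outside when this list was below its own series mean in the fraction where the gene was highest. A fraction holds several structures, so the count says which fractions peak, not which cells. The cortex list was below its mean in coronal fractions 1 to 3, 11 and 12, horizontal fractions 3 to 6 and sagittal fractions 4 to 8. The share of all tested probes that peak in such fractions is not given here. The counts below therefore have no background and describe the 8 genes only.

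In the coronal series 4 of the 8 genes peaked outside. Pvalb and Calb2 were highest in fraction 2, 2.80 and 2.04 above their series means. There the cortex list was at -1.55, and the lists of cerebellar granule cells, hindbrain and Purkinje cells were at 3.92, 3.76 and 3.44. Npy and Reln were highest in fraction 12, 1.59 and 2.00 above their means. There the cortex list was at -0.71, and the lists of olfactory sensory neurons, which lie in the nose and send axons into the bulb, and of olfactory bulb were at 4.94 and 4.86. Their part in the levels of Npy and Reln was not tested. Sst peaked in fraction 7 and Vip, Cck and Cort in fraction 10, with the cortex list at 0.78 and 0.77. In fraction 7 the hypothalamus list stood higher, at 4.08, and in fraction 10 so did the lists of olfactory sensory neurons (1.73), olfactory bulb (1.39) and blood (0.90). The same 4 genes were counted under the array median, quantile normalization and the other background correction.

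The other series gave less stable counts. In the horizontal series Calb2 and Reln peaked outside, both in fraction 3, with the cortex list at -0.01, and with the array median as the scaling none did. With quantile normalization Pvalb and Sst were counted there, and with the other background correction Sst and Calb2. In the sagittal series Pvalb and Calb2 (fraction 8, cortex list at -0.27) and Reln (fraction 5, cortex list at -0.14) peaked outside. The array median and the other background correction replaced Reln with Cck there, and quantile normalization left Calb2 and Reln. Calb2 and Reln were counted in all 3 series with the 75th percentile, and no gene was with the array median. The cortex list varied far less in the sagittal series, from -0.31 to 0.49, than in the coronal series, from -1.78 to 1.11.

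Profiles of the genes were set beside the mean profiles of the marker lists as a description. Neighbouring fractions share tissue, and all genes of a fraction share its array, so r is given with no test. Over the 12 coronal fractions r with the cortex list was 0.90 for Cort and Cck, 0.87 for Vip, 0.80 for Sst and 0.62 for Npy, and -0.56 for Pvalb, -0.81 for Reln and -0.87 for Calb2. Over the 6 horizontal fractions it was 0.997 for Cort, 0.99 for Cck, 0.98 for Npy and 0.90 for Vip, and 0.59 and 0.57 for Sst and Reln. The 4 blood markers had r of 0.91, 0.94, 0.92 and 0.85 with Cort, Cck, Npy and Vip there. In the coronal series these were -0.42, -0.38, -0.18 and -0.39, and in the sagittal series 0.43, 0.59, 0.44 and 0.34. Over the 10 sagittal fractions r with the cortex list was 0.82 for Vip, 0.79 for Sst, 0.74 for Npy, 0.70 for Cort and 0.57 for Cck, in an order that differs from the coronal one. Npy had its highest coronal r with the list of the suprachiasmatic nucleus (0.79), but r was -0.68 with that list in the horizontal and -0.80 in the sagittal series.

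Pvalb had its highest coronal r with the Purkinje list (0.92), close to those with the lists of hindbrain (0.90), myelin (0.88) and granule cells (0.87). In the horizontal series it had 0.99 with the Purkinje and 0.97 with the granule cell list, and in the sagittal series 0.95 with granule cells, 0.93 with myelin and 0.92 with Purkinje cells. These values lie close together. Calb2 had its highest coronal r with the blood list (0.82), followed by granule cells (0.66), and its highest horizontal and sagittal r with the lists of olfactory bulb (0.97) and granule cells (0.95). Reln had its highest coronal r with blood (0.62), followed by granule cells (0.59), and its highest sagittal r with hippocampus (0.83). With blood, r of Calb2 was -0.44 in the horizontal and -0.04 in the sagittal series, and r of Reln was 0.42 and -0.11. The part of blood in these levels was not tested.

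**Figure D4:**
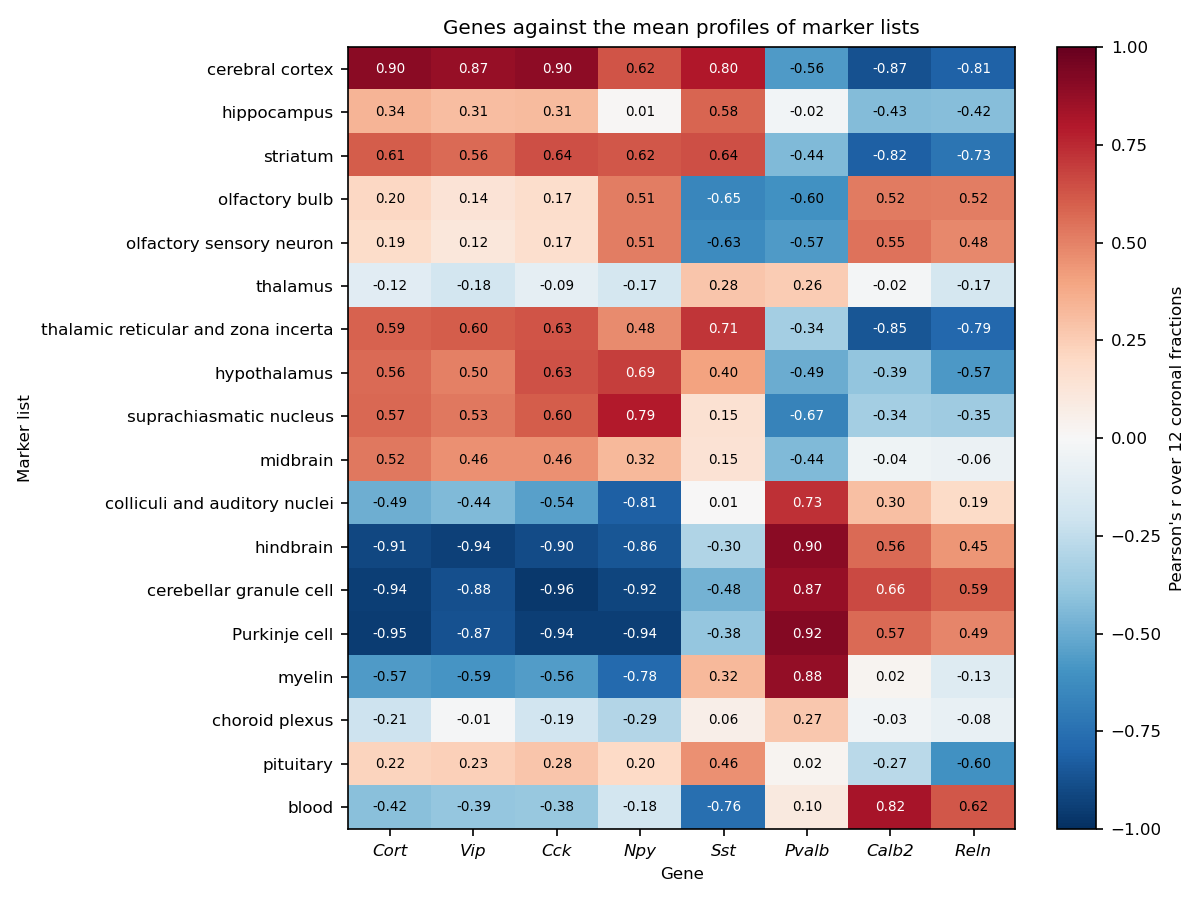
Pearson's r over the 12 coronal fractions between each gene (columns) and the mean profile of each of the 18 marker lists (rows), on a colour scale from -1 (blue) to 1 (red). Cort, Vip, Cck and Sst have r of 0.80 to 0.90 with the cortex list, Pvalb has r of 0.87 to 0.92 with the lists of hindbrain, cerebellum and myelin, and Calb2 and Reln have negative r with the cortex list and their highest r with the blood list.

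Among the 8 genes, the closest pairs over the 28 fractions were Cck and Cort (r = 0.95), Vip and Cort (0.94), Vip and Cck (0.90) and Npy and Cck (0.87). These 4 pairs held within each series, with r of at least 0.94, 0.92, 0.88 and 0.86. Npy and Cort (0.85) came next, with 0.85, 0.99 and 0.92 in the coronal, horizontal and sagittal series. Of these 4 genes, Cort, Cck and Vip carry the shorter motif in the promoters printed above and Npy does not, against 17.8% of all promoter windows. Sst, which holds the full element, had r of only 0.31 (Npy) to 0.59 (Cck) with these 4 genes. A link between motif and profile was not tested. Cort and Sst, whose peptides share receptors, had r of 0.58, with 0.49 in the coronal series, where Cort stayed high in fractions 11 and 12 and Sst did not. Pvalb and Calb2 had r of 0.90 in the horizontal and 0.95 in the sagittal series, but 0.29 in the coronal series, where Calb2 was high at the front end and Pvalb low. Sst and Reln had r of -0.94 in the coronal series, 0.05 in the horizontal and -0.22 in the sagittal. Pvalb and Sst, which mark the largest interneuron groups of the cortex, had r of 0.05 over all fractions.

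Among 15545 other symbols, those most like each gene over the 28 fractions were named by rank of r. Cort was closest to Emx1 (0.99), Lhx2 (0.99) and Krt12 (0.98), and Vip to Emx1 (0.96), Mef2c (0.95) and Lhx2 (0.94). Emx1, the symbol closest to both, encodes a transcription factor of cortical projection neurons and their progenitors. Cck was closest to Psd (0.97), Stx1a (0.96) and Arhgap33 (0.96), of which Stx1a encodes the presynaptic fusion protein syntaxin 1A. Npy was closest to Klhl40 (0.94), Rasgef1c (0.93) and Cdc42se2 (0.92). Sst was closest to Tafa1 (0.94), Mal2 (0.92) and Unc5a (0.92). Pvalb was closest to Mybpc3 (0.96), Hes3 (0.94) and Car8 (0.93), the last a Purkinje cell gene that is also in the Purkinje list. Calb2 was closest to Shisa8 (0.95), 6430571L13Rik (0.94) and Sh3bgr (0.93). Reln was closest to Ybx3 (0.90), Mcmbp (0.87) and Sf3b3 (0.87). The number of symbols with r over 0.85 was 215 for Cck, 199 for Cort, 119 for Vip, 78 for Npy, 73 for Pvalb, 37 for Sst and Calb2 each, and 7 for Reln.

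The receptors through which these peptides and reelin act were counted next. Of 15 receptor and adaptor genes tested, 10 had a coronal trend, all 10 with the highest fitted value in fractions 7 to 12, against 20.4% of all probes. Over all 15 the median fitted range was 2.16 log2, against 0.90 over all probes. For single genes of this and the following lists, the highest fraction is the observed one, which can differ from the peak of the curve. The curves of Npy2r and Sstr2, for example, were highest in fraction 8. A fitted range given for a gene that was not well above background in every fraction rests in part on values below detection, and no fold is given from it. Among the genes that passed, the largest fitted ranges were those of Npy2r, a neuropeptide Y receptor well above background in 10 of 12 fractions (5.38, adjusted p = 0.00234, highest in fraction 6), Vipr2, a receptor of vasoactive intestinal peptide (4.31, adjusted p = 0.0357, highest in fraction 12), and Sstr2, a somatostatin receptor well above background in 8 of 12 (3.28, adjusted p = 0.0203, highest in fraction 6). The reelin receptor genes Lrp8 and Vldlr did not pass in the coronal series, but Lrp8 did in the horizontal (adjusted p = 0.026) and Vldlr in the sagittal (adjusted p = 0.0384). Cckbr, the main brain receptor of cholecystokinin, passed in the coronal series, with levels from -0.51 to 3.06 (adjusted p = 0.0107) and a maximum in fraction 9. These last 3 were picked after their values were seen.

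In the horizontal series 7 of the 15 passed, against 15.8% of all probes, and in the sagittal series 4, against 14.7%. Cckbr was highest in horizontal fraction 1, as Cck was, with a range from 1.04 to 3.62 (adjusted p = 0.0208). Vipr2 was highest in horizontal fraction 4 (fitted range 2.93, adjusted p = 0.0241) and sagittal fraction 7 (fitted range 2.92, adjusted p = 0.0427), whereas Vip was highest in horizontal fraction 1 and sagittal fraction 10. Npy2r also passed in the horizontal series (fitted range 2.43, adjusted p = 0.0307, highest in fraction 5). In the sagittal series Dab1, the adaptor through which reelin receptors signal, was highest in fraction 1 (fitted range 2.15, adjusted p = 0.0185) and Npy5r, a further neuropeptide Y receptor well above background in 7 of 10 fractions, in fraction 5 (fitted range 1.80, adjusted p = 0.048).

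Genes shared by GABA neurons were Gad1 and Gad2, which make GABA, Slc32a1, which loads it into vesicles, and Abat, which breaks it down. In the coronal series, where 33.7% of all probes passed, Gad2 did (fitted range 1.33, adjusted p = 0.0415), while Gad1 (1.28, adjusted p = 0.0524), Slc32a1 (0.89, adjusted p = 0.283) and Abat (0.36, adjusted p = 0.455) did not, and none of the 4 passed in the horizontal series, against 15.8%. The coronal fitted ranges of the 8 subtype genes were 3.02 log2 or more. In the sagittal series all 4 passed, against 14.7% of all probes, with fitted ranges of 2.27 for Gad2 (adjusted p = 0.0251), 2.10 for Slc32a1 (adjusted p = 0.0436), 2.03 for Gad1 (adjusted p = 0.0225) and 1.29 for Abat (adjusted p = 0.0476). The first 3 were highest in fraction 6 and Abat in fraction 4. Cort, Vip and Cck were lowest in fractions 5 to 7 of that series.

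Transcription factors and other genes of the interneuron lineage gave 13 of 17 with a coronal trend, 4 of 17 with a horizontal and 2 of 17 with a sagittal one, against 33.7%, 15.8% and 14.7% of all probes. Dlx2 (10.40, adjusted p = 0.000431) and Sp8 (10.00, adjusted p = 4.95e-05) had large fitted ranges, both highest in coronal fraction 12, where Npy and Reln also peaked. Both were well above background in 9 of 12 fractions, so these ranges are not measured at their lower end. Lhx6, which specifies the Pvalb and Sst lineages and was picked after its values were seen, was highest in coronal fraction 6 (levels 3.44 to 5.70, adjusted p = 0.000308). In the horizontal series the largest ranges among the 4 that passed were those of Nkx2-1 (3.49, adjusted p = 0.0288, highest in fraction 6 and well above background in 2 of 6 fractions), Nr2f2 (2.28, adjusted p = 0.0291, highest in fraction 5) and Dlx5 (1.89, adjusted p = 0.0369, highest in fraction 3). In the sagittal series Sp8 (4.34, adjusted p = 0.0417, highest in fraction 7) and Prox1 (3.42, adjusted p = 0.0425, highest in fraction 3 and well above background in 7 of 10 fractions) passed.

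Of 19 other subtype genes, 14 had a coronal trend, 6 a horizontal and 5 a sagittal one, with the same shares of all probes as background. Syt2, a synaptotagmin of fast-spiking terminals, had the largest coronal (6.23, adjusted p = 0.000255) and sagittal range (5.58, adjusted p = 0.00953) of those that passed, being well above background in 9 of 12 and 8 of 10 fractions, and its highest coronal fraction was 2, as for Pvalb. Calb1, the calcium-binding protein calbindin, was highest in coronal fraction 3 (5.09, adjusted p = 0.00454) and in sagittal fraction 3 (3.08, adjusted p = 0.023), and well above background in 10 of 12 and 9 of 10 fractions. Tac1, the precursor of substance P, was highest in coronal fraction 9 (4.26, adjusted p = 0.00132) and horizontal fraction 6 (2.92, adjusted p = 0.0167). Sncg (4.97, adjusted p = 0.0211) and Syt2 (3.11, adjusted p = 0.0284, well above background in 5 of 6 fractions), the others with the largest horizontal ranges among those that passed, were highest in fraction 5. Htr3a, the serotonin receptor subunit of the class that includes the Vip cells, was highest in sagittal fraction 1 (fitted range 2.13, adjusted p = 0.0105). Lamp5, Calb1, Penk and Prox1 in these lists are also in the regional lists.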

How the data were processed

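RNA from every fraction was amplified with Cy3 and hybridised to Agilent mouse arrays. The deposited intensity values come from Feature Extraction 10.5.1.1 per the file headers, which subtracts the background of each spot. For 44721 probes the authors deposited log2 values as well, and these match the levels used here to within 2.35e-06 once a constant of 0.000576 to 0.00758 for each array is allowed for.

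Outlier-flagged spots were dropped, log2 processed signals were averaged over the spots of a probe, and each array was centred on its 75th percentile. Probes were named through a RefSeq table (GRCm38.p6), which named 27235 of 55681 (48.9%), and the probe with the highest mean over 28 arrays stood for a gene. A probe was well above background where at least 0.5 of its spots were flagged so, and was tested if this held in at least 1 fraction of each series. That gave 32426 probes, less 62 with no usable spot on some array, hence 32364. No spot was saturated. The genomic positions of the array grid were not used.

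Position trends were tested with limma 3.58.1 in R 4.3.3, by fitting a natural cubic spline over fraction numbers (3 degrees of freedom for coronal and sagittal, 2 for horizontal) and taking its F-test, adjusted by Benjamini-Hochberg over all tested probes. The error is the residual around the curve, which includes sharp anatomy, so p-values describe these 3 brains only. Mirror pairs and sides of the sagittal series were tested with limma, and the series were not tested against each other. The number of arrays limits the precision. The code was tested on simulated data. Alternatives were the array median, quantile normalization, normexp on median foreground signals with an offset of 50 (the mean signal that had been planned is not used here), no filter, fewer spline degrees of freedom, the authors' log2 table, another probe, the slide and leaving out fractions. The text names the 8 genes, for each the 3 symbols with the highest r, and from each further list the genes past the threshold with the 3 largest fitted ranges in a series, apart from those said to be picked after their values were seen. A few list genes are not reported here. The 8 genes, the lists and the tests were chosen with earlier results of these data known.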

Additional observations from a re-analysis of the deposited data

How the results depend on the processing

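In the coronal series, all 8 genes kept a trend under each alternative except 2. With the slide as an added term 0 passed, where 241 of the 32364 tested probes did. The range of the curve term alone was then 2.42 to 8.18 log2, not comparable with the 3.02 to 6.47 of the main fit. Among fractions 3 to 10 alone 7 passed, where 4164 probes did. Leaving out any 1 fraction gave 8 to 8, and between 7936 (24.5%, without fraction 11) and 11146 (34.4%, without fraction 10) of all tested probes. In the horizontal series the count was 5, and it was 7 with the array median, 7 with quantile normalization, 6 with normexp and 0 with 1 spline degree of freedom fewer. Over all tested probes 5116 passed, and 19333, 6874, 9066 and 1 did so under these settings in turn. Leaving out 1 fraction gave 0 to 5, and between 0 (without fraction 3 or 4) and 5754 (17.8%, without fraction 5) of all tested probes. In the sagittal series the count was 3, and it was 0 with the array median, 2 with quantile normalization, 4 with normexp, 2 with the slide term and 0 among fractions 5 to 10 alone. Over all tested probes 4769 passed, and 341, 2626, 14293, 2521 and 0 did so in turn. Leaving out 1 fraction gave 0 to 4, and between 0 (without fraction 1) and 15246 (47.1%, without fraction 10) of all tested probes. The mirror pair passed for 0 genes, as for 0% of all tested probes, and for 1 gene with the array median (Calb2, adjusted p = 0.0466). The share of all probes with the array median is not given here, so that call has no background beside it. The sides differed for 0 genes in each alternative run. With the array median 0 genes peaked outside the cortex in the horizontal series, against 2. The cause of these changes was not tested, other than that fewer fractions leave fewer residual degrees of freedom.

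Directions turned only where no test was passed. These were the sagittal trend of Reln with normexp (adjusted p = 0.327), the mirror pattern of Sst with the array median (0.985), and the side difference of Pvalb (0.799) and Calb2 (0.946) with the array median, of Npy (0.978) and Cort (0.980) with quantile normalization, of Reln with normexp (0.796), of Pvalb (0.891), Calb2 (0.984) and Cck (0.958) without fractions 1 and 10, of Vip, Npy, Cck and Cort without fractions 2 and 9 (0.9999 each), and of Pvalb and Cck with the slide term (1 each). The highest fraction of a gene moved in 21 of 72 alternatives. No paired analysis was possible because equal fraction numbers of the 3 series are positions along different axes and pair no samples, while the mirror pairs within the sagittal series are given above. Low signal limits Reln, not well above background in 6 fractions, and Vip in 1.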
